A study of Mus musculus with 2 samples.

Results

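The neuregulins Nrg1, Nrg2 and Nrg3 and the ErbB receptors Egfr, Erbb2, Erbb3 and Erbb4 were chosen by gene symbol, which gave 7 of the 55536 genes in the gene tables and 41 annotated transcripts of them. The tissue was the left cerebral cortex, taken from 2 male mice aged 36 days, and total RNA was sequenced. Both mice were B6CASTF1/J, an F1 hybrid of the B6 and CAST strains from The Jackson Laboratory. Each mouse gave 1 library from 300 ng of RNA with reduced ribosomal RNA and added ERCC spike-ins, a set of synthetic control RNAs. The labels number the mice as biological replicates 1 and 2 and give both the same donor identifier. They were treated here as 2 animals, an assumption on which every SD and spread between the mice rests. Both libraries form 1 group with no treatment, genotype or age contrast, so every result is a level, its spread between the mice or a comparison between genes. No exact test on 2 values can give a p under 0.5, and no p-value was computed. Intervals on counts cover counting error only.

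Neuregulins are growth factors whose EGF-like domain binds ErbB receptors, the receptor tyrosine kinases of the epidermal growth factor receptor family. Nrg1 and Nrg2 bind Erbb3 and Erbb4, and Nrg3 binds Erbb4. Bound receptors pair with each other, and Erbb2, which has no known ligand of its own, is the usual partner. In the cortex Erbb4 is known chiefly from inhibitory interneurons, Nrg3 and Nrg1 from neurons that contact them, and Erbb3 from cells of the oligodendrocyte lineage. Fewer cells of a type and less RNA per cell cannot be told apart in bulk tissue.

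The libraries held 29915463 (replicate 1) and 27988085 (replicate 2) expected counts. The cortex label was checked on marker lists. All 6 excitatory neuron, 8 inhibitory neuron, 6 astrocyte, 5 oligodendrocyte precursor, 6 oligodendrocyte, 6 microglia and 6 endothelial markers reached a TPM (transcripts scaled for length and summed to a fixed total in each library) of 1 in both mice. None of the 3 Schwann cell markers did, and 2 of 3 choroid plexus markers did, led by Ttr at 8.60 TPM in replicate 1 and 5.35 TPM in replicate 2. The oligodendrocyte markers had a median of 130.1 TPM in replicate 1 and 115 TPM in replicate 2.

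Several members are spliced in ways known to change the protein, and the sequences that tell their forms apart are shown first. They were read from GENCODE M21 transcripts on GRCm38/mm10 and are written 5′ to 3′ on the gene's strand. They carry up to 15 lower-case bases of the neighbouring exons, except in Egfr, where these bases belong to the same exon. In Erbb4, a receptor with alternative segments next to the membrane, capitals mark the JM-a exon at chr1:68290243-68290317 (75 bases, minus strand) and the JM-b exon at chr1:68290439-68290483 (45 bases, minus strand). The JM-a segment carries the site where the protease Adam17 cuts the receptor, and the JM-b segment lacks it. The CYT-1 exon at chr1:68043908-68043955 (48 bases, minus strand) encodes part of the cytoplasmic tail with a docking site for phosphoinositide 3-kinase. All 3 exons are coding.
Erbb4 JM-a: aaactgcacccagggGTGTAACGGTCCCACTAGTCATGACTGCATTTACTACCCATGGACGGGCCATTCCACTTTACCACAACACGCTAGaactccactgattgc
Erbb4 JM-b: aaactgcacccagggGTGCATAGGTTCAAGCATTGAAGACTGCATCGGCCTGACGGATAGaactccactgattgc
Erbb4 CYT-1: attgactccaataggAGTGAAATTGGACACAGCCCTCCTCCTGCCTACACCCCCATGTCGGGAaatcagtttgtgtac

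In Nrg1 the end of the EGF-like domain comes from either of 2 coding exons, alpha at chr8:31838261-31838328 (68 bases) or beta at chr8:31837670-31837728 (59 bases), both on the minus strand and in capitals below. Beta forms are known to bind the receptors more tightly. Both exons follow the same 15 lower-case bases.
Nrg1 EGF alpha: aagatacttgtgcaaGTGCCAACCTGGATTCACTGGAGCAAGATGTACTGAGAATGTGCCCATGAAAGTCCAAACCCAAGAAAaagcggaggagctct
Nrg1 EGF beta: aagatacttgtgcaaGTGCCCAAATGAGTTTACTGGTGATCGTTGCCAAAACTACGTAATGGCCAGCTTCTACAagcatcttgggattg

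Nrg1 transcripts also differ in their first exon. Capitals mark the last 60 coding bases of the most upstream one, here called the distal start (chr8:32883516-32883575), of the next one, here called the immunoglobulin start (chr8:32009010-32009069), and of the type III start (chr8:31917537-31917596), all on the minus strand. From start to start the distances are 874.92 kb and then 90.718 kb. The distal and the immunoglobulin start splice into the same next exon, which encodes part of the immunoglobulin domain, as their shared lower-case bases show. Type III transcripts skip it and encode a cysteine-rich domain in place of the immunoglobulin domain, which keeps the ligand tethered to the membrane.
Nrg1 distal start: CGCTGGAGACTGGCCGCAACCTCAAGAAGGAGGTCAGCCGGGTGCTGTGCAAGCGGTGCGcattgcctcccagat
Nrg1 immunoglobulin start: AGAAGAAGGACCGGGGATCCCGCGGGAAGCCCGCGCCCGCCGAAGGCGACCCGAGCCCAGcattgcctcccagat
Nrg1 type III start: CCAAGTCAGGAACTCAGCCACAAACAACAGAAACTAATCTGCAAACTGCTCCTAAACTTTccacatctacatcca

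The remaining pair marks a coding exon of 72 bases in Nrg3-201 (chr14:38371277-38371348, minus strand), and the coding end with its TAA stop of the transcript Egfr-202 (chr11:16887186-16887228, plus strand), which stops ahead of the exon that encodes the transmembrane segment. The last exon of Egfr-202 begins at chr11:16887141, so the change of case in its sequence is not an exon junction.
Nrg3 late exon: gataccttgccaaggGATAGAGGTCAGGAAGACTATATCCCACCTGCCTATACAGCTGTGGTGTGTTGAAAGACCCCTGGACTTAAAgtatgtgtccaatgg
Egfr truncated end: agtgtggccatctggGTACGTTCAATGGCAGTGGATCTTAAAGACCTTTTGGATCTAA

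Nrg3 was the most abundant member and Erbb4 the most abundant receptor. Nrg3 (ENSMUSG00000041014.17, chr14:38368952-39473088, minus strand) had 31.4 TPM in replicate 1 and 34.5 TPM in replicate 2, a mean of 32.9 ± 2.19 TPM (SD, n = 2). Its level lay at the 71.8th percentile in replicate 1 and the 73.5th in replicate 2 among the 12889 nuclear protein-coding genes (those outside the mitochondrial genome) at 1 TPM or more in both mice. The median of those genes was 15.5 TPM in replicate 1 and 16.4 TPM in replicate 2, so Nrg3 stood above it in both.

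Nrg1 (ENSMUSG00000062991.7, chr8:31814551-32884029, minus strand), the founding ligand of the family, had 9.99 TPM in replicate 1 and 12.2 TPM in replicate 2 (mean 11.1 ± 1.58 TPM, SD, n = 2). Nrg2 (ENSMUSG00000060275.13, chr18:36017652-36197380, minus strand), its closest relative, had 8.83 TPM in replicate 1 and 5.07 TPM in replicate 2 (mean 6.95 ± 2.66 TPM, SD, n = 2). Both lay under the median of detected genes in each mouse, Nrg1 at the 36.9th and 41.3rd percentiles and Nrg2 at the 33.6th and 19.6th. The mice differed more in Nrg2 than in any other member by SD, although its expected counts were 238 in replicate 1 and 237 in replicate 2. TPM divides counts by the effective length, which for Nrg2 was 1370 bases in replicate 1 and 2545 bases in replicate 2.

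Among the receptors, Erbb4 (ENSMUSG00000062209.15, chr1:68032186-69108059, minus strand), the receptor that binds all 3 of these neuregulins, had 24.7 TPM in replicate 1 and 28.2 TPM in replicate 2 (mean 26.5 ± 2.51 TPM, SD, n = 2). Egfr (ENSMUSG00000020122.16, chr11:16752203-16918158, plus strand), which binds EGF and related ligands rather than neuregulins, had 5.77 TPM in replicate 1 and 6.68 TPM in replicate 2 (mean 6.23 ± 0.643 TPM, SD, n = 2). Erbb4 was above the median of detected genes in each mouse and Egfr below it, at the 23.6th and 25.1st percentiles.

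Erbb3 (ENSMUSG00000018166.8, chr10:128567523-128589652, minus strand), a neuregulin receptor with a nearly inactive kinase, had 2.88 TPM in replicate 1 and 2.87 TPM in replicate 2 (mean 2.88 ± 0.00707 TPM, SD, n = 2). It has a single annotated transcript, so its effective length was 5917 bases in both mice. Erbb2 (ENSMUSG00000062312.5, chr11:98412470-98437716, plus strand), the partner receptor, was the lowest member with 0.66 TPM in replicate 1 and 1.05 TPM in replicate 2 (mean 0.855 ± 0.276 TPM, SD, n = 2). It rested on 62 expected counts in replicate 1 and 75 in replicate 2. Reaching 1 TPM in both mice was thus seen for 6 of the 7 members, beside 58.5% of 22015 nuclear protein-coding genes.

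**Figure D1:**
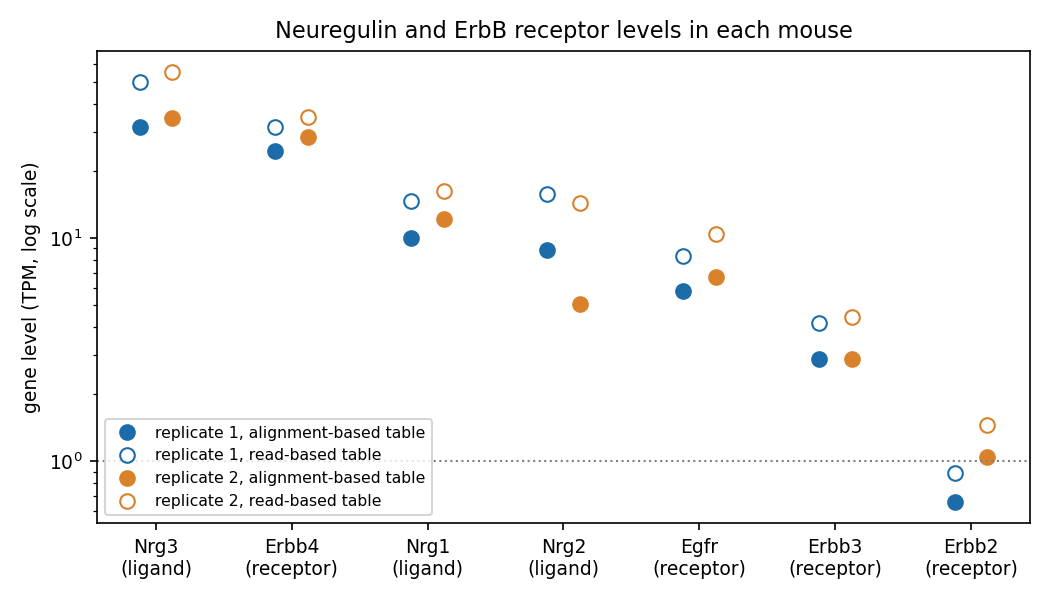
Level of each gene in TPM (log axis) in replicate 1 (blue) and replicate 2 (orange), filled for the alignment-based and open for the read-based quantification, with the dotted line at 1 TPM. Nrg3 and Erbb4 stand above the other members in both mice, and Erbb2 lies around the line.

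The order of levels by mean was Nrg3, Erbb4, Nrg1, Nrg2, Egfr, Erbb3 and Erbb2. Each gap between neighbours was set against how far the mice differed in the 500 protein-coding genes of most similar abundance, taken at the 95th percentile and on the log2(TPM + 1) scale, and 3 of 6 gaps were beyond it in both mice. Erbb4 stood above Nrg1 by 1.23 in replicate 1 and 1.14 in replicate 2, against a spread of 0.49. Egfr stood above Erbb3 by 0.80 and 0.99 (spread 0.58), and Erbb3 above Erbb2 by 1.22 and 0.92 (spread 0.59). These steps fall between Nrg3 with Erbb4, then Nrg1, Nrg2 and Egfr, then Erbb3, then Erbb2. Only neighbours in the order were compared, so members of one group are not shown to be alike. Nrg1 was above Egfr in both mice, at 9.99 TPM against 5.77 TPM in replicate 1 and 12.2 TPM against 6.68 TPM in replicate 2.

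Neighbours within those groups did not differ beyond the spread in both mice. Nrg3 was above Erbb4 by 0.33 in replicate 1 and 0.28 in replicate 2 (spread 0.37), and Nrg1 above Nrg2 by 0.16 and 1.12 (spread 0.53). Nrg2 minus Egfr was 0.54 in replicate 1 and -0.34 in replicate 2 (spread 0.55), so that pair changed order between the mice. In the read-based quantification, Nrg3 exceeded Erbb4 by 0.65 in both mice against a spread of 0.41, and 4 of 6 gaps were beyond the spread.

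One receptor and one ligand made up most of each class. Erbb4 held 72.6% of the summed TPM of the 4 receptors in replicate 1 and 72.7% in replicate 2. Egfr held 16.97% and 17.20%, Erbb3 8.47% and 7.39%, and Erbb2 1.94% and 2.70%. Among the 3 neuregulins, Nrg3 held 62.5% in replicate 1 and 66.6% in replicate 2, Nrg1 held 19.9% and 23.6%, and Nrg2 held 17.6% and 9.80%. The receptors summed to 34.0 TPM in replicate 1 and 38.8 TPM in replicate 2, and the neuregulins to 50.2 TPM and 51.8 TPM.

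The members' counts were close between the mice. Log2 ratios of replicate 1 over replicate 2, scaled by edgeR's TMM factors, were -0.02 for Nrg3, -0.03 for Nrg1 and -0.02 for Nrg2. Among the receptors they were -0.01 for Erbb4, 0.08 for Egfr and 0.07 for Erbb3. None of these 6 members, which reached a mean count of 100, passed an absolute log2 ratio of 0.5, where 3.3% of 12530 genes did (145 higher and 268 lower in replicate 1). There is 1 library a mouse, so this fold has no replicate check, and 5% of all genes lay below -0.36.

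Counting error set how closely each member could be compared. The 95% exact binomial (Clopper-Pearson) interval of the log2 ratio ran from -0.08 to 0.06 for Erbb4, which had 3586 counts in replicate 1 and 3535 in replicate 2, and from -0.11 to 0.07 for Nrg3, with 2132 and 2114 counts. It was wider for Nrg2, from -0.29 to 0.24. Erbb2 was below the minimum of 100 counts, and its ratio was -0.30 with an interval of -0.81 to 0.20. The plot of ratios shows all 7 intervals including 0. In the read-based table Erbb2 had 64 counts in replicate 1 and 93 in replicate 2, and its ratio of -0.52 had an interval of -1.01 to -0.05. Egfr's interval there also left out 0, with a ratio of 0.16 and an interval of 0.02 to 0.29, while those of the other members included it. Scaled by library totals, Erbb4 alone left out 0, from -0.14 to -0.007.

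**Figure D2:**
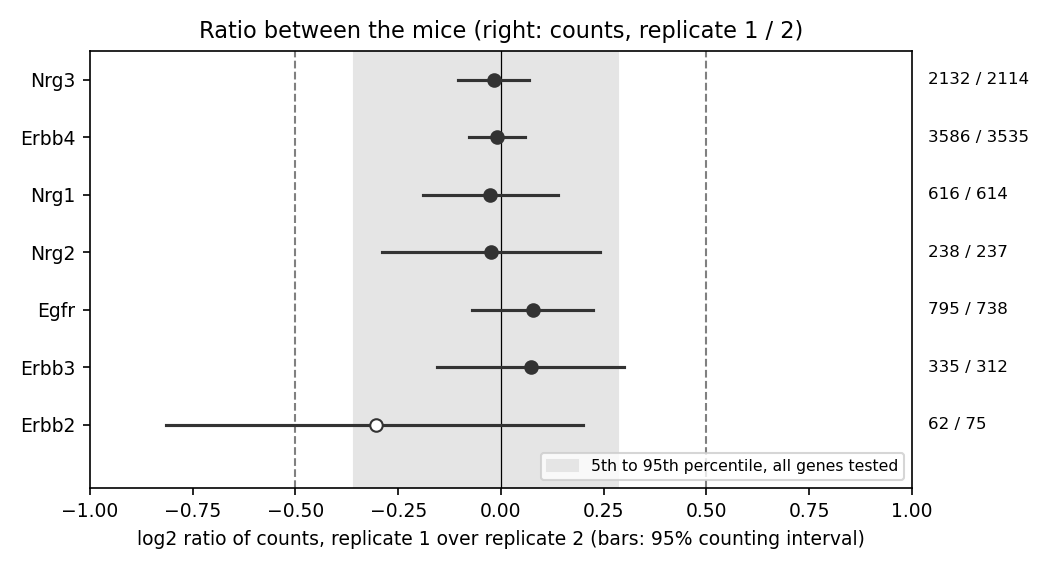
Log2 ratio of TMM-scaled expected counts, replicate 1 over replicate 2, for each member, with 95% counting intervals as bars, counts at the right, dashed lines at 0.5 in either direction and a grey band from the 5th to the 95th percentile of 12530 genes. The filled members lie inside the band, and Erbb2 (open, under a mean count of 100) has the widest interval.

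Scaling to the spike-in totals, which were 121668 counts in replicate 1 and 90089 in replicate 2, moved the median log2 ratio of all genes to -0.38. The members then lay between -0.71 for Erbb2 and -0.33 for Egfr, that is, around that shift. Egfr and Erbb3, above 0 with TMM, were below 0 there.

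Transcript levels were uneven within most members. Of the 41 annotated member transcripts, 22 had expected counts in both mice and 11 had none in either. Erbb4-202, a JM-a transcript of 1292 codons without the CYT-1 exon, carried 49.8% of Erbb4's TPM in replicate 1 and 47.6% in replicate 2. Erbb4-205, a JM-b model of 2196 bases whose 3′ end is not annotated, carried 44.5% and 45.5%. The authors' TPM bounds of the Erbb4 pair overlapped in each mouse, at 9.33 to 11.99 for Erbb4-205 against 11.05 to 12.50 for Erbb4-202 in replicate 1, and 10.9 to 13.8 against 12.3 to 13.5 in replicate 2.

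Nrg3-201, which encodes 713 codons and holds the late exon shown above, carried 61.3% of Nrg3's TPM in replicate 1 and 53.6% in replicate 2. The coding transcripts without that exon were lower, Nrg3-202 at 10.5% and 9.71% and Nrg3-203 at 10.3% and 16.9%. The retained-intron model Nrg3-204 carried 17.9% in replicate 1 and 19.8% in replicate 2. Nrg3-201 led in both mice. The order of Nrg3-202 and Nrg3-203 changed between the mice, but the authors' bounds of this pair overlapped in each mouse. In replicate 1 they were 1.59 to 5.29 TPM for Nrg3-202 and 0.378 to 4.98 TPM for Nrg3-203. In the read-based table Nrg3-203 was above Nrg3-202 in both mice. Its shares there were 17.9% in replicate 1 and 23.7% in replicate 2, against 13.4% and 11.5%.

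Nrg1 was split among more transcripts than any other member, with 18 annotated, of which 7 had counts in both mice and 8 in neither. Nrg1-218, from the distal start, carried 31.3% in replicate 1 and 29.5% in replicate 2. Nrg1-203, from the immunoglobulin start, carried 29.4% and 24.4%, and the retained-intron model Nrg1-204, from the type III start, carried 16.7% and 7.52%. A partial model of 407 bases, Nrg1-216, was listed at 0 in replicate 1 and took 16.96% of TPM in replicate 2, on 11.7 expected counts. All 4 retained-intron models of Nrg1 together carried 27.3% in replicate 1 and 16.8% in replicate 2.

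Nrg2's transcripts had unequal shares in the 2 mice in the alignment-based table. The single long coding transcript, Nrg2-203 with 857 codons, carried 37.8% of TPM in replicate 1 and 84.9% in replicate 2, from 194 and 234 expected counts. The partial model Nrg2-204, of 328 bases, took 33.1% in replicate 1 on 13.2 counts and 15.1% in replicate 2 on 3.22 counts. Nrg2-202, of 630 bases, took 21.2% in replicate 1 on 19.6 counts and was listed at 0 in replicate 2. By TPM, Nrg2-203 had 3.34 in replicate 1 and 4.30 in replicate 2, so this transcript was lower in replicate 1 while the gene's summed TPM was higher. In the read-based table its shares were closer, at 29.8% in replicate 1 and 38.3% in replicate 2, and Nrg2-202 held 29.9% and 19.8%.

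In Egfr the full-length Egfr-201 (1210 codons) carried 57.3% in replicate 1 and 50.3% in replicate 2, and the truncated Egfr-202 (655 codons) 42.7% and 29.8%. A processed transcript of 446 bases, Egfr-205, was listed at 0 in replicate 1 and took 17.8% in replicate 2 on 7.57 counts. Erbb2-201, the coding transcript of Erbb2, carried 81.6% in replicate 1 and 46.0% in replicate 2, on 51.7 and 43.6 counts. The processed transcript Erbb2-202, in which an exon of 343 bases keeps an intron, carried 18.4% and 36.5%, on 10.3 and 30.5 counts. Its TPM was 0.12 in replicate 1 and 0.38 in replicate 2, and the authors' bounds for it (0.000003 to 0.434 and 0.143 to 0.620) overlap. The read-based table put Erbb2-201 at 99.7% in replicate 1 and 53.4% in replicate 2, and Erbb2-202 at 0.255% and 46.6%. There Egfr-201 held 63.8% and 49.4%, and the processed transcript Egfr-204 was listed at 0 in replicate 1 and held 31.7% in replicate 2.

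**Figure D3:**
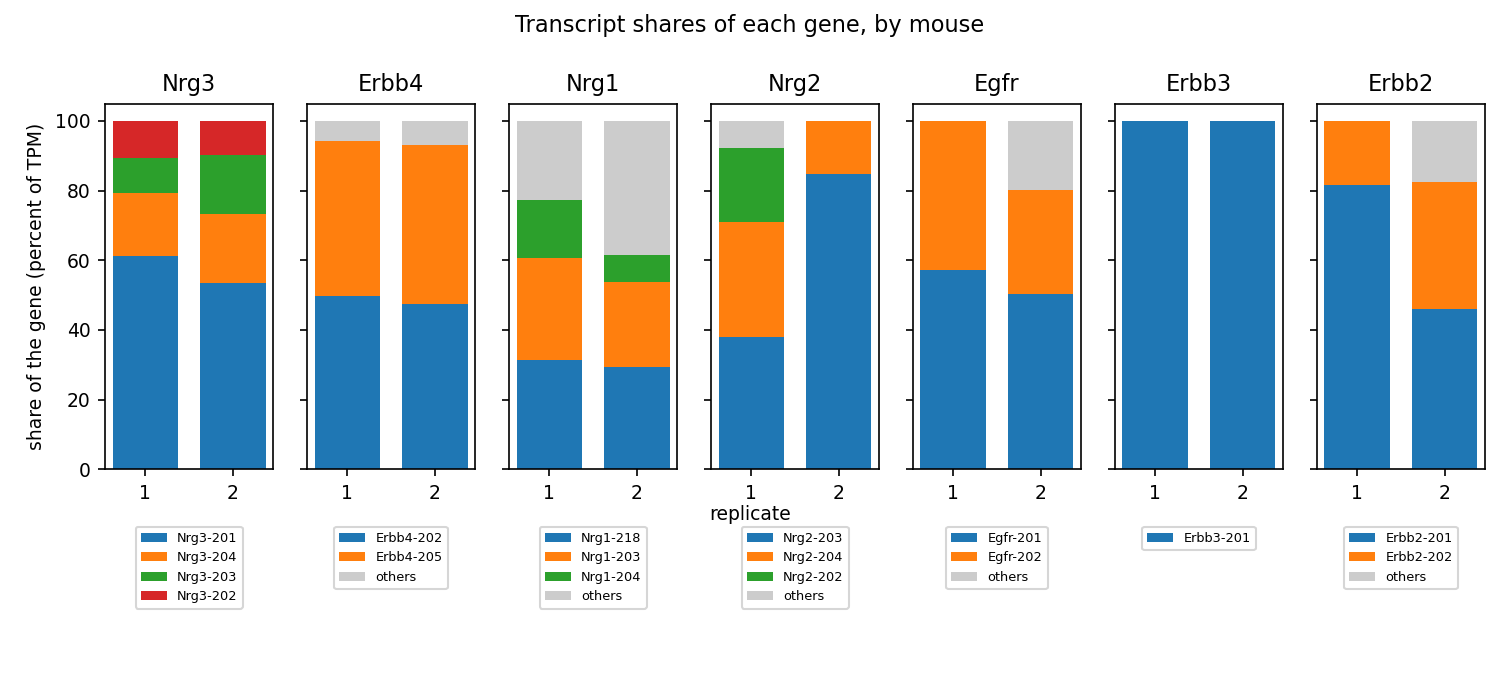
Share of each gene's TPM in the alignment-based table carried by its transcripts in replicate 1 and replicate 2, with transcripts of a mean share of at least 10% in colour and the others in grey. Erbb4's main transcripts hold like shares in both mice, while Nrg2-203 covers 37.8% in replicate 1 and 84.9% in replicate 2.

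Counted by exon, JM-a transcripts of Erbb4 summed to 13.4 TPM in replicate 1 and 13.8 TPM in replicate 2, and JM-b transcripts to 11.3 TPM and 14.4 TPM. JM-b forms were thus 45.9% of the JM total in replicate 1 and 51.0% in replicate 2. In replicate 2 this includes 1.54 TPM on 4 expected counts from Erbb4-204, a non-coding model of 240 bases, which had 0.36 TPM on 1 count in replicate 1. Without models under 500 bases, an alternative chosen after seeing the data, JM-b was 45.1% and 48.2%, below JM-a in both mice. The read-based table put JM-b at 39.3% and 43.1%, with JM-a higher in both mice. The JM-b level rests mostly on the partial model Erbb4-205. By expected counts, which are not corrected for its shorter length, the JM-b share was 12.7% and 14.1%. Reads of JM-b molecules past the end of that model could be assigned only to the JM-a models.

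The CYT-1 exon held a minority of the TPM of complete coding Erbb4 transcripts. Erbb4-205, with 44.5% of Erbb4's TPM in replicate 1 and 45.5% in replicate 2, ends before this exon. Of the annotated models only Erbb4-201 and Erbb4-202 reach it, and both hold JM-a. Reads of JM-b molecules over this exon could thus be assigned only to these models. The CYT-1 share may therefore cover JM-a and JM-b molecules together, and it does not tell which of them hold the exon. Erbb4-201, the transcript with JM-a and CYT-1, had 1.06 TPM in replicate 1 and 0.41 TPM in replicate 2. This was 7.94% and 2.96% of the TPM of complete coding Erbb4 transcripts, and the read-based table gave 6.94% and 2.92%. The authors' bounds for its TPM were 0.560 to 1.73 in replicate 1 and 0.154 to 0.832 in replicate 2, which overlap.

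Nearly all Nrg1 that could be assigned to an EGF-like exon was beta. Beta transcripts summed to 7.06 TPM in replicate 1 and 9.85 TPM in replicate 2, against 0.21 TPM and 0.47 TPM for alpha, so that beta was 97.1% and 95.4% of the alpha and beta total. In the read-based table beta was 95.4% in replicate 1 and 92.9% in replicate 2. Alpha rested on 11.2 and 19.6 expected counts.

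By TPM, no first exon of Nrg1 held most of the gene. Transcripts from the distal start summed to 3.13 TPM in replicate 1 and 3.61 TPM in replicate 2, or 31.3% and 29.9% of the sum over the 3 starts. Those from the immunoglobulin start summed to 3.75 TPM and 3.82 TPM, or 37.5% and 31.6%, and those from the type III start to 3.12 TPM and 4.66 TPM, or 31.2% and 38.5%. The highest sum was that of the immunoglobulin start in replicate 1 and that of the type III start in replicate 2, where 2.07 TPM came from the partial model Nrg1-216. Without models under 500 bases the immunoglobulin start was highest in both mice, at 37.5% and 38.1%, and the type III start held 31.2% and 25.8%. Part of the type III sum lies in retained-intron models, with 1.67 TPM in replicate 1 and 0.92 TPM in replicate 2 for Nrg1-204, and 0.45 TPM and 0.54 TPM for Nrg1-207. The read-based table had the immunoglobulin start highest in both mice, at 41.4% and 40.0%. By expected counts, with no correction for length, the immunoglobulin start held 54.6% in replicate 1 and 53.0% in replicate 2, and the type III start 16.7% and 15.8%. Transcripts with the immunoglobulin-encoding exon, from either upstream start, made up 68.8% of Nrg1 TPM in replicate 1 and 60.8% in replicate 2.

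Egfr's truncated end and the exon encoding its transmembrane segment were both measured. The truncated transcript, which encodes the outer part of the receptor without a membrane anchor, had 2.46 TPM in replicate 1 and 1.99 TPM in replicate 2, against 3.30 TPM and 3.36 TPM for the transcript with the transmembrane exon. It was lower than the full-length form in both mice, at 42.7% and 37.2% of the pair, and at 32.2% and 27.7% in the read-based table. By expected counts it was 17.4% and 14.3%.

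**Figure D4:**
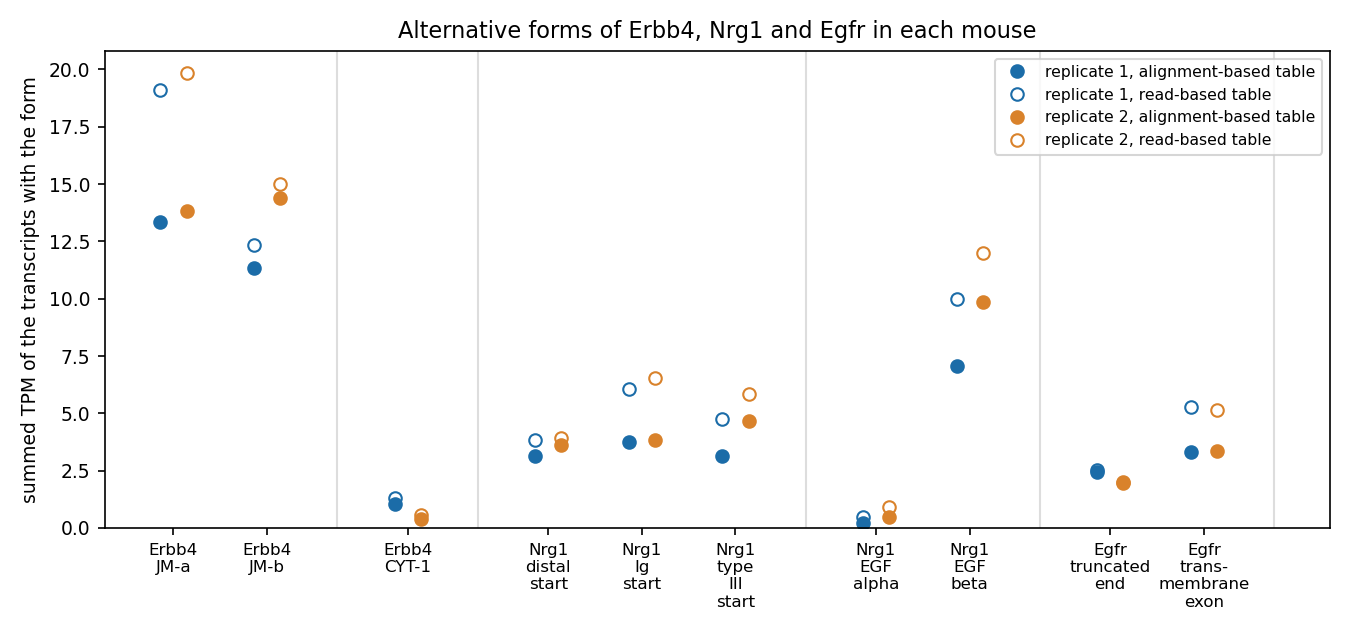
Summed TPM of the transcripts that hold each alternative exon or end of Erbb4, Nrg1 and Egfr, in replicate 1 (blue) and replicate 2 (orange), filled for the alignment-based and open for the read-based quantification. Nrg1 beta stands far above alpha in both mice, while JM-a and JM-b of Erbb4 and the 3 Nrg1 starts lie closer together.

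Reads can be shared where genes overlap, and the sources used here do not give whether the counting used strand. The annotation places 19 genes over the members, 9 of them antisense. Mien1, on the opposite strand at the 3′ end of Erbb2 (chr11:98437708-98438991), was the only one at 1 TPM or more in both mice, with 697 counts in replicate 1 and 526 in replicate 2, several times those of Erbb2. The overlap covers the last bases of Erbb2 alone, where reads could be split between them. The 4 genes within Nrg3, including its antisense RNA Nrg3os, had 0 counts in both mice, which allows up to 3 counts each.

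The other antisense genes were low. Egfros, antisense to Egfr, had 2 counts in replicate 1 and 0 in replicate 2, Gm26578 at Nrg1 had 5 in each, and 4930471G03Rik at Nrg2 had 1 and 0. The small RNA genes Gm22140 (Nrg1), Gm25048 (Erbb2), Mir6917 (Erbb3), Gm25542 (Erbb4) and Gm27332 (Nrg3) had 0 counts in both mice, as did Gm20641 and Gm20642 (Nrg3).

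Within Erbb4, 8 genes on its own strand summed to 37 counts in replicate 1 and 83 in replicate 2. Of these, 6 were higher in replicate 2 and 1 in replicate 1. Gm37769 had 10 counts in replicate 1 and 30 in replicate 2, Gm16076 had 5 and 14, Gm37100 had 5 and 12, and Gm37061 had 2 and 11. Smaller differences were seen for Gm37735 (5 and 7) and Gm19335 (3 and 4), and the pseudogene Gm15670 had 7 and 5. Against 3586 and 3535 counts for Erbb4 itself, their sum was small in both mice.

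The remaining ligands of the receptors were mostly low in the alignment-based table. There 2 of 8 were at 1 TPM or more in both mice, beside 58.5% of 22015 nuclear protein-coding genes. Their median was 0.33 TPM in replicate 1 and 0.35 TPM in replicate 2. Tgfa, a ligand of Egfr, had 8.65 TPM in replicate 1 and 7.24 TPM in replicate 2, and Hbegf, a ligand of Egfr and Erbb4, had 5.51 TPM and 4.75 TPM. Both lay near Egfr and Nrg2 in level. Egf itself had 0.84 TPM in replicate 1 and 1.26 TPM in replicate 2, and Nrg4, a further neuregulin that binds Erbb4, had 0.37 TPM and 0.45 TPM. Btc had 0.29 TPM and 0.25 TPM, Areg had 3 counts in replicate 1 and 1 in replicate 2, and Epgn had 0 and 3. Ereg had 0 counts in both mice, which allows up to 3. In the read-based table Egf had 1.83 TPM in replicate 1 and 2.03 TPM in replicate 2, and Btc 1.60 TPM and 1.66 TPM. Both thus passed 1 TPM there in each mouse. Nrg4 had 0.75 TPM and 1.60 TPM there, while Areg, Epgn and Ereg stayed under 1 TPM in both mice.

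Genes that process the ligands and receptors were all detected. All 10 proteases reached 1 TPM in both mice, beside 58.5% of 22015 nuclear protein-coding genes. Their median was 27.8 TPM in replicate 1 and 27.5 TPM in replicate 2, above Erbb4 in replicate 1 and below it in replicate 2. Bace1, which cuts Nrg1, was the highest by mean, at 35.9 TPM in replicate 1 and 39.0 TPM in replicate 2. Psenen was above it in replicate 1, at 36.4 TPM. Adam17, which cuts Erbb4 in its JM-a form, was the lowest by mean. It had 5.73 TPM in replicate 1 and 9.51 TPM in replicate 2, with 447 and 472 counts. In replicate 2 Psen2, at 8.54 TPM, and Adam19, at 9.24 TPM, were below it.

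All 10 genes of receptor turnover and inhibition were also at 1 TPM or more in both mice, beside 58.5% of nuclear protein-coding genes. Their median was 19.0 TPM in replicate 1 and 17.5 TPM in replicate 2. They ranged from Lrig3, of a family of receptor inhibitors, at 1.48 TPM in each mouse to Nedd4, a ubiquitin ligase, at 119.7 TPM in replicate 1 and 127 TPM in replicate 2. The 3 scaffolds were detected as well, too few genes to set against that share. The lowest was Erbin, an Erbb2-binding protein, at 17.2 TPM in replicate 1 and 18.8 TPM in replicate 2. The highest was Dlg4, the postsynaptic protein PSD-95 that binds Erbb4, at 383.1 TPM in replicate 1 and 382.8 TPM in replicate 2.

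Adaptor and signalling genes were detected in 30 of 32 cases, beside 58.5% of nuclear protein-coding genes. Their median was 44.6 TPM in replicate 1 and 45.6 TPM in replicate 2. This was above all 7 members in each mouse, whose own median was 8.83 TPM and 6.68 TPM. Stat5a, a transcription factor downstream of Erbb4, was the lowest at 0.63 TPM in replicate 1 and 0.59 TPM in replicate 2. Grb7, an Erbb2-binding adaptor, had 0.73 TPM in replicate 1 and 1.30 TPM in replicate 2. In the read-based table both passed 1 TPM in each mouse. Stat5a had 1.17 TPM in replicate 1 and 1.06 TPM in replicate 2 there, and Grb7 1.88 TPM and 2.33 TPM.

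**Figure D5:**
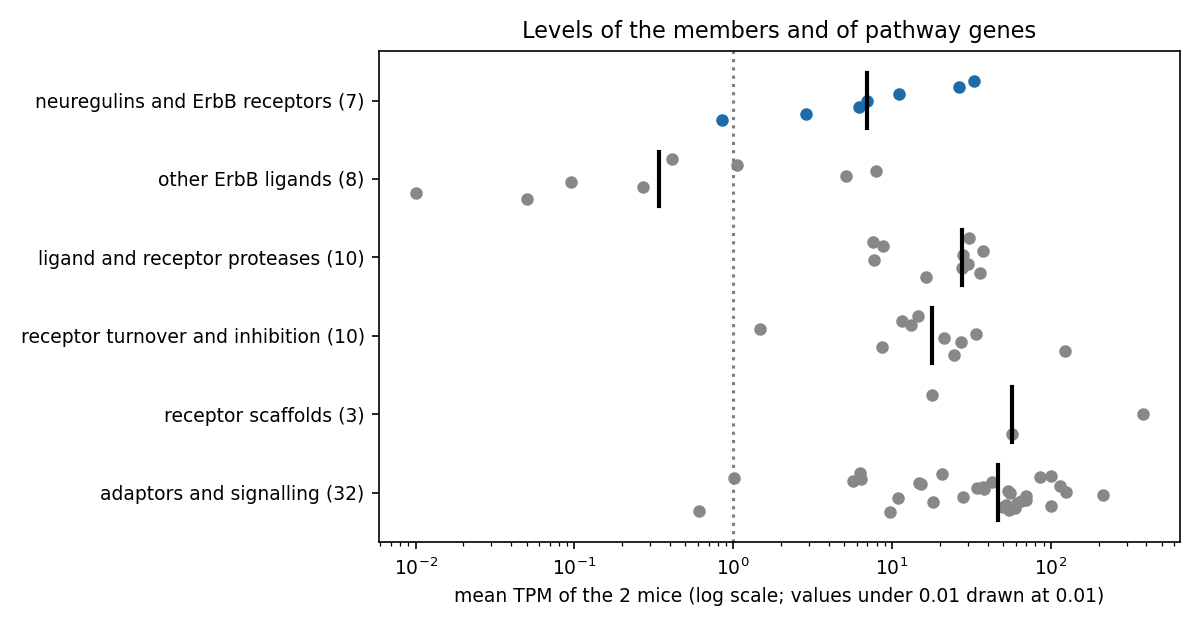
Mean TPM of the 2 mice (log axis) for each member (blue) and each gene of the pathway lists (grey), with black bars at the median of each list and a dotted line at 1 TPM. The other ErbB ligands lie lowest, and the lists of proteases and of adaptors and signalling genes have medians above the median of the members.

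The read-based quantification gave higher TPM for all 7 members, as the plot of levels shows. Nrg3 had 50.1 TPM there in replicate 1 and 55.4 TPM in replicate 2, and Erbb4 had 31.5 TPM and 34.8 TPM. Nrg1 had 14.6 TPM and 16.3 TPM, Egfr 8.30 TPM and 10.4 TPM, Erbb3 4.16 TPM and 4.45 TPM, and Erbb2 0.884 TPM and 1.46 TPM. Its log2 ratio over the alignment-based one, on TPM + 1, was 0.66 for Nrg3, 0.44 for Nrg1 and 1.01 for Nrg2. Among the receptors it was 0.31 for Erbb4, 0.52 for Egfr, 0.45 for Erbb3 and 0.23 for Erbb2. Across 13134 protein-coding genes at a mean of 1 TPM or more the 5th percentile was 0.24, the median 0.58 and the 95th percentile 1.09. None of the 6 members at that level lay outside that range, which itself leaves out 10% of genes. Erbb2, at a mean of 0.855 TPM, is not among those genes, and adding 1 to so low a TPM draws its ratio toward 0 (0.41 with a pseudocount of 0.1). For Nrg2 the read-based level was 15.8 TPM in replicate 1 and 14.3 TPM in replicate 2, so the mice were closer there than at 8.83 TPM and 5.07 TPM in the alignment-based table.

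The transcripts in GENCODE's basic set, which drops most partial and retained-intron models, give lower mean levels for all members except Erbb3, whose single transcript is in the set. Over that set, chosen after seeing the data, Erbb4 had 13.4 TPM in replicate 1 and 13.8 TPM in replicate 2, and Nrg3 had 25.7 TPM and 27.7 TPM. Nrg1 had 7.27 TPM and 8.11 TPM, Nrg2 had 3.34 TPM and 4.30 TPM, Egfr had 5.76 TPM and 5.35 TPM, and Erbb2 had 0.53 TPM and 0.48 TPM. Nrg3 was above Erbb4 in both mice on this set as well, and by more than over all transcripts. The set leaves out Erbb4-205, which carried 44.5% of Erbb4's TPM in replicate 1 and 45.5% in replicate 2. Receptor shares and gaps against the spread were not recomputed on it. Erbb2 was under 1 TPM in both mice.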

How the data were processed

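Total RNA of the left cerebral cortex of 2 mice was sequenced, and the authors deposited, for each library, gene and transcript tables quantified from alignments and a transcript table quantified from the reads. Per the file headers these hold expected counts (estimated counts), TPM, each transcript's percent of its gene's TPM, and lower and upper bounds of TPM, kept here as a score because the deposited files do not state their level. The genome build mm10 and GENCODE M21 come from the deposited listing. Details of the aligner, the quantifiers, the use of strand and the handling of CAST alleles were not given in the sources used here. TPM divides by effective length and is a share of all RNA, so short models with few reads weigh heavily.

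Members were matched by symbol, and all 55536 genes were found in the GENCODE M21 annotation. Read-based gene levels are sums over transcripts. Gaps between neighbours used log2(TPM + 1). Ratios between the mice used TMM factors from edgeR 4.0.16 in R 4.3.3 with a prior count of 0.5, where a gene averaged 100 counts or more. DESeq2 1.42.0 size factors were an alternative. The counting intervals were computed in R as well. Levels, shares and gaps were computed in Python 3.11.15 (scipy 1.17.1, pandas 2.3.3), and figures drawn with matplotlib 3.10.9. Both scripts were tested on simulated data. Total expected counts of 29915463 and 27988085 set the precision.

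The text names all members, their transcripts with a mean share of at least 10% and a leading transcript of each, forms by splice exon, genes overlapping a member, and the highest and lowest gene of each pathway list with all other ErbB ligands; one gene under this rule is not reported here. Erbb4-201, Erbb4-204, Nrg1-207, Nrg1-216, Egfr-204, Egfr-205, Adam19, Psen2, Psenen, Grb7 and Ttr were added after their values were seen. The members and lists were chosen with earlier results of these data known.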

Additional observations from a re-analysis of the deposited data

How the results depend on the processing

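The number of members at 1 TPM in both mice (6) was 7 at a threshold of 0.1 and 5 at a threshold of 5. Erbb4's share of receptor TPM (mean 72.7%) moved beyond 1 SD to 69.2% in the read-based table and to 75.5% by expected counts, and Nrg3's share of neuregulin TPM (mean 64.5%) to 71.3% by expected counts. The JM-b share of Erbb4 (mean 48.5%) moved to 41.2% in the read-based table and to 13.4% by expected counts. Genes past the fold between the mice, 413 with TMM, were 3047 with spike-in totals, 1663 at a mean count of at least 20 and 7233 at a mean count of at least 1, and were 390 with DESeq2 size factors and 528 with library totals. Leaving out either mouse gave 3 to 4 neighbour gaps beyond the spread (4 without replicate 1), an Erbb4 share of 72.6% to 72.7%, an Nrg3 share of 62.5% to 66.6%, 6 to 7 members at 1 TPM (7 without replicate 1), and a JM-b share of 45.9% to 51.0%. No value past its threshold changed sign, while Nrg2 minus Egfr, within the spread, was above 0 in replicate 1 and below it in replicate 2. The cause of these shifts was not tested. Across single genes, transcripts and forms, 159 recomputed values stayed within 1 SD or on their side of a threshold and 67 did not: 24 in the read-based table, 13 by expected counts, 8 over nuclear protein-coding genes, 6 each with the basic transcripts, spike-in totals and a pseudocount of 0.1, 2 without models under 500 bases, and 1 each at detection thresholds of 0.1 and 5. The values that stayed include 42 without replicate 1 and 42 without replicate 2. With 2 mice, either value always lies within 1 SD of their mean. Leaving out a mouse could therefore not move a level, gap or share, and these 2 settings do not measure stability. No paired analysis was possible because both mice belong to 1 group. Depth limits Erbb2, Nrg2 and the short partial transcripts most, where a share of TPM rests on fewer than 100 counts or on a short model, and 2 mice limit every SD.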
